A study of Arabidopsis thaliana with 12 samples.

Results

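Roots of ara1/2mut, a line of Arabidopsis thaliana with mutations in both ARABIDILLO genes, were set against roots of wild-type Col-0. The members were all arrays titled ara1/2mut (3) and all titled Col-0 (3), 6 of the series' 12 arrays. The ara1/2mut line is in the Col-3 background, so the mutations and the background (Col-3 or Col-0) cannot be told apart in this comparison, and the 3 wild-type Col-3 arrays are given beside the main values. Seedlings of all groups were 7 days old and came from seed held for 2 days at 4 °C. They were raised at 24 °C on agar (1%) with Murashige and Skoog salts at 0.5 strength, in days of 16 h light and 8 h dark. The labels give no allele, no number of plants per sample and no statement that replicates are separate cultures, so p-values here reflect only how far these samples differed, and that spread may be technical. A further 3 arrays of roots carrying 35S:Ara1YFP in Col-0 (ara1OX) entered the fit only to estimate the spread.

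The proteins ARABIDILLO-1 and ARABIDILLO-2 combine an F-box with Armadillo repeats, the repeat type also found in animal β-catenin. F-box proteins choose the substrates of SCF ubiquitin ligases, which mark proteins for degradation. In Arabidopsis the ARABIDILLO proteins promote the formation of lateral roots: mutants branch less and overexpressors more. Gene expression in the roots of the mutant was measured in the search for genes that depend on these proteins. Neither gene has a probe set that could be named, so the levels of the targeted genes are not analysed here.

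Each array holds MAS5 signals, a linear measure of hybridisation for 22746 probe sets without the controls, and all differences below are of log2 signal, ara1/2mut minus Col-0 unless another pair is named. The 13648 probe sets with a mean log2 signal of 4.49 (a signal of 22.4) or more were tested, 7321 of them named. The ara1/2mut arrays varied more among themselves than the Col-0 arrays did. Residual SDs on the log2 scale were 0.370, 0.281 and 0.286 for ara1/2mut replicates 1 to 3, against 0.281, 0.235 and 0.247 for Col-0. Mean correlations with the other arrays of the same group were 0.926, 0.944 and 0.943 in ara1/2mut, against 0.954, 0.962 and 0.960 in Col-0. Every ara1/2mut array correlated more closely with the Col-0 arrays (0.934, 0.954 and 0.964) and with the Col-3 arrays (0.932, 0.953 and 0.964) than with the other ara1/2mut arrays. Replicate 1 of ara1/2mut had the lowest of these correlations and an actin 3′ to 5′ signal ratio of 25.2, where the other 5 arrays had 8.09 to 17.1. GAPDH ratios averaged 0.956 ± 0.187 in ara1/2mut and 1.04 ± 0.143 in Col-0 (SD, n = 3 each). The part of this array's quality in the results was not tested, and values without it are given beside several genes whose difference from Col-0 moved when it was left out.

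**Figure D1:**
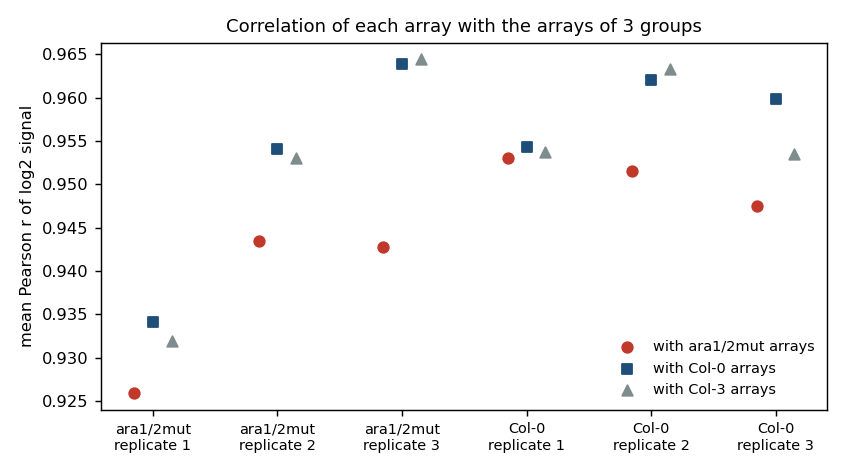
Mean Pearson correlation of log2 signal (vertical axis) of each ara1/2mut and Col-0 array with the ara1/2mut arrays (circles), Col-0 arrays (squares) and Col-3 arrays (triangles), an array's correlation with itself left out. For each ara1/2mut array the circle lies below the square and the triangle, and replicate 1 is the lowest at 0.926 to 0.934.

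The labelled tissue was checked against root and shoot genes. The root hair genes EXPA7 and EXPA18 (wall-loosening expansins) and GH9C1 (a cellulase) had signals between 198 and 362 in the ara1/2mut and between 204 and 318 in the Col-0 arrays, where the median over all tested probe sets was 94.97. Of 24 nuclear photosynthesis genes listed as shoot markers, 5 had a named probe set. Their summed signal ran from 230.4 to 473 in ara1/2mut and from 183 to 328 in Col-0, with ara1/2mut replicate 1 the highest. LHCB4.1, a light-harvesting antenna protein, read 228, 104 and 74.7 in ara1/2mut, against 86.4, 118 and 93.9 in Col-0. Of the 4 members tested, 3 had a log2 difference above 0 (50.6% of all probe sets), and the median was 0.26. PSBW had the largest, 0.89, or 0.69 without ara1/2mut replicate 1. Leaving out 1 array at a time, it ran from -0.43 to 1.67. The summed signals of the groups overlapped. MAS5 signals are above 0 even under the filter signal, as for LHCB4.2, with means of 18.1 in ara1/2mut and 13.4 in Col-0. The sums therefore cannot show whether shoot RNA was present, and the part of shoot genes in the other results was not tested. In RNA of whole roots, fewer cells of a type and less RNA per cell cannot be told apart.

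No probe set differed between ara1/2mut and Col-0 after adjustment (0 of 13648 at a Benjamini-Hochberg adjusted limma p under 0.05, 0% called). The smallest adjusted p reached 0.763. Without adjustment, 486 probe sets (3.56%) had a p under 0.05, of which 237 were higher in ara1/2mut (1.74%) and 249 lower (1.82%). If p-values were spread evenly, 682 would fall there. A p under 0.01 was found for 69, where 136 would have it. The count at 0.05 was 776 without ara1/2mut replicate 3, 766 without Col-0 replicate 1 and 301 without Col-0 replicate 3. With replicate number fitted as a block it was 683, and the smallest adjusted limma p was then 0.0526. The 3 ara1/2mut arrays lay wholly above the 3 Col-0 arrays in 621 probe sets (4.55%) and wholly below in 535 (3.92%), together 8.47%. In any comparison of 3 arrays with 3 some probe sets lie so by the order of the arrays alone, so such counts do not show differences. The median difference was 0.0029 and the median of its size 0.15, with a median SE of 0.23 and 95% limits of about 2.13 SE on each side. The number of arrays limits this precision.

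**Figure D2:**
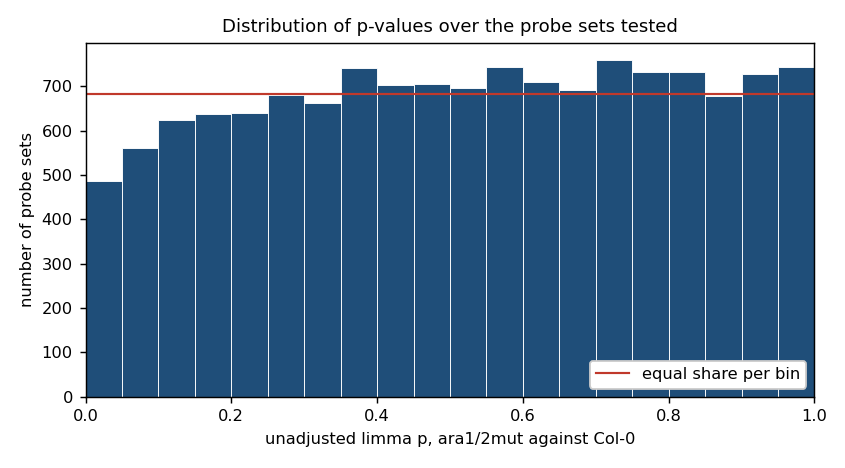
Number of probe sets (vertical axis) by unadjusted limma p for ara1/2mut against Col-0 (horizontal axis, bins of 0.05), with a line at the equal share of 682 per bin. The lowest bin holds 486 probe sets, the fewest of all bins.

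The same arrays against Col-3 also gave 0 calls (0%), with a smallest adjusted p of 0.759 and 486 probe sets with an unadjusted p under 0.05 (3.56%), 243 higher and 243 lower (1.78% each). The ara1/2mut arrays lay wholly above the Col-3 arrays in 693 probe sets (5.08%) and wholly below in 549 (4.02%), together 9.1%. Against the mean of both wild types there were 0 calls (0%), a smallest adjusted p of 0.968 and 423 probe sets with an unadjusted p under 0.05 (3.1%), 191 higher (1.4%) and 232 lower (1.7%). These comparisons share the ara1/2mut arrays, so their values below are set side by side and are not independent of each other.

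Only 56 probe sets differed by 2-fold or more between ara1/2mut and Col-0, 27 higher and 29 lower. In 45 of them the lower of the group means was under a signal of 50, and in 26 it was under the filter signal of 22.4, a range in which fold sizes are uncertain. In 10 of the 27 and 8 of the 29 the arrays of the groups did not overlap (4.55% and 3.92% of all probe sets). These probe sets were taken by the size of their difference on the same arrays, so the counts partly follow from the choice. The genes described next had the smallest p among named genes whose ara1/2mut and Col-0 arrays did not overlap, 12 in each direction, so their lack of overlap is the rule by which they were taken and not a finding. Apart from AT3G25805 their adjusted p was 1.00, and none passed the test.

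Among these genes AT3G25805 had the largest difference, with signals of 37.9, 43.9 and 46.4 in ara1/2mut, against 12.8, 11.5 and 9.39 in Col-0. Its log2 difference was 1.94 (SE 0.35, 95% interval 1.19 to 2.69), a 3.82-fold higher mean in ara1/2mut with an adjusted limma p of 0.763. All 3 Col-0 signals lay under the filter signal, and the Col-3 arrays, at 23.8, 33.0 and 21.9, lay between those of ara1/2mut and Col-0. Against Col-3 the log2 difference was 0.72 (SE 0.35, 95% interval -0.03 to 1.47). It passed in 1 of the alternatives, a fit with no variance trend, with an adjusted p of 0.00666.

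Next among the genes with higher values was GSTL3, a glutathione transferase of the lambda class, enzymes that act on small molecules with the thiol glutathione. It read 331, 262 and 269.8 in ara1/2mut, against 194, 194 and 162 in Col-0, a log2 difference of 0.65 (SE 0.16, adjusted limma p 1.00) or 1.56-fold. The Col-3 arrays, at 244, 249.8 and 248, lay just below the lowest ara1/2mut array and above every Col-0 array, and the difference from Col-3 was 0.21 (SE 0.16). LPA19, a chloroplast protein of photosystem II assembly, read 108, 52.8 and 56.1 in ara1/2mut, against 41.3, 37.6 and 33.0 in Col-0, so that replicate 1 stood far above the other ara1/2mut arrays. Its log2 difference was 0.88 (SE 0.28), or 0.55 without ara1/2mut replicate 1, and its Col-3 signals of 70.9, 43.5 and 59.3 overlapped those of ara1/2mut. The cytochrome P450 gene AT1G73340, of a family that oxidises small molecules, read 81.5, 96.4 and 81.2 in ara1/2mut, against 41.1, 60.6 and 64.3 in Col-0 (0.66, SE 0.20). Its Col-3 signals, 68.3, 89.3 and 78.9, again overlapped those of ara1/2mut.

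The peptidase gene AT5G51740 had a log2 difference of 0.56 (SE 0.16), from signals of 237, 186 and 192 in ara1/2mut, against 159, 136 and 123 in Col-0. Among the other genes of this direction, AT1G21920 had 0.44, AT5G19630 had 0.67, AT4G16180 had 0.72, AT1G56290 had 0.84, AT1G68140 had 0.54 and AT5G08200 had 0.68 on the log2 scale. Against Col-3 the 12 genes ran from -0.35 to 0.72. Of the 12, 1 had an unadjusted limma p under 0.05 there (1.78% of all probe sets), AT5G08200 (0.59, SE 0.22, p 0.0176). AT1G21920 had similar signals in ara1/2mut and Col-3, with 783, 767 and 710.5 in ara1/2mut, against 602, 579.6 and 486 in Col-0 and 749, 709 and 748 in Col-3. Its ara1/2mut and Col-3 arrays overlapped, with a log2 difference of 0.03 (SE 0.13). AT5G14330 turned its sign: it read 57.5, 85.1 and 84.9 in ara1/2mut, against 27.4, 32.4 and 55.5 in Col-0 and 60.1, 159 and 90.5 in Col-3. The log2 difference was 1.03 (SE 0.34) against Col-0 and -0.35 (SE 0.34) against Col-3.

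In the lower direction AT3G32030, a gene of the terpene synthase family, had the largest difference. It read 13.0, 31.5 and 23.4 in ara1/2mut, against 57.1, 77.8 and 101 in Col-0, a log2 difference of -1.85 (SE 0.38, 95% interval -2.67 to -1.04, adjusted limma p 1.00). The mean was 3.61-fold higher in Col-0. Over the alternatives its smallest adjusted limma p against Col-0 was 0.0526, with replicate number as a block. The Col-3 arrays, at 44.9, 42.4 and 68.7, also lay above every ara1/2mut array, with a log2 difference of -1.26 (SE 0.38) against Col-3. Its probe set carries the suffix s, which marks probes shared with other transcripts, so the signal may include relatives of the gene.

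The class III peroxidase gene AT2G41480 read 68.3, 111 and 74.97 in ara1/2mut, against 146, 143 and 166 in Col-0. Its log2 difference was -0.87 (SE 0.20), and the Col-3 signals, 120.0, 89.7 and 122, overlapped those of ara1/2mut. Class III peroxidases are secreted enzymes that cross-link and loosen the cell wall. The serine carboxypeptidase-like gene scpl20 read 115, 172 and 217 in ara1/2mut, against 332, 245 and 278 in Col-0 and 313, 300.5 and 319 in Col-3. All 3 ara1/2mut arrays lay below all 6 wild-type arrays. The log2 difference was -0.80 (SE 0.20) against Col-0, or -0.55 without ara1/2mut replicate 1, and -0.93 (SE 0.20) against Col-3. TO1, a thioredoxin of the mitochondrion, read 179.9, 148 and 200.4 in ara1/2mut, against 259, 251 and 250.2 in Col-0 (-0.54, SE 0.17). The Col-3 arrays of TO1, at 191, 223 and 174, overlapped those of ara1/2mut.

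AT5G35940, which encodes a jacalin-like lectin, had low signals of 15.3, 19.1 and 38.8 in ara1/2mut, against 49.2, 64.5 and 53.0 in Col-0 (-1.30, SE 0.38). The GDSL lipase gene AT1G28600 read 27.6, 29.9 and 37.6 in ara1/2mut, against 50.8, 60.6 and 54.2 in Col-0 (-0.81, SE 0.24). AT2G27720, a P2 protein of the stalk of the large ribosomal subunit, read 985, 1079.7 and 958 in ara1/2mut, against 1299.7, 1371 and 1437 in Col-0. The log2 difference was -0.44 (SE 0.14). The other 5 genes of this direction ran from -0.72 for AT5G26270 to -0.44 for AT1G67330. AT1G67330 read 674, 604 and 742 in ara1/2mut, against 872, 923 and 930.0 in Col-0 and 713, 729.6 and 722 in Col-3, so that the Col-3 arrays lay inside the ara1/2mut range. For AT5G66440, AT5G54370 and TO1 too the Col-3 arrays overlapped ara1/2mut, with log2 differences against Col-3 of -0.08, -0.13 and -0.16. Over the 12 genes the differences from Col-3 ran from -1.26 to -0.08, and 5 had an unadjusted limma p under 0.05 there (1.78% of all probe sets). The 12 were taken for low values in the same ara1/2mut arrays, so this count partly follows from the choice.

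**Figure D3:**
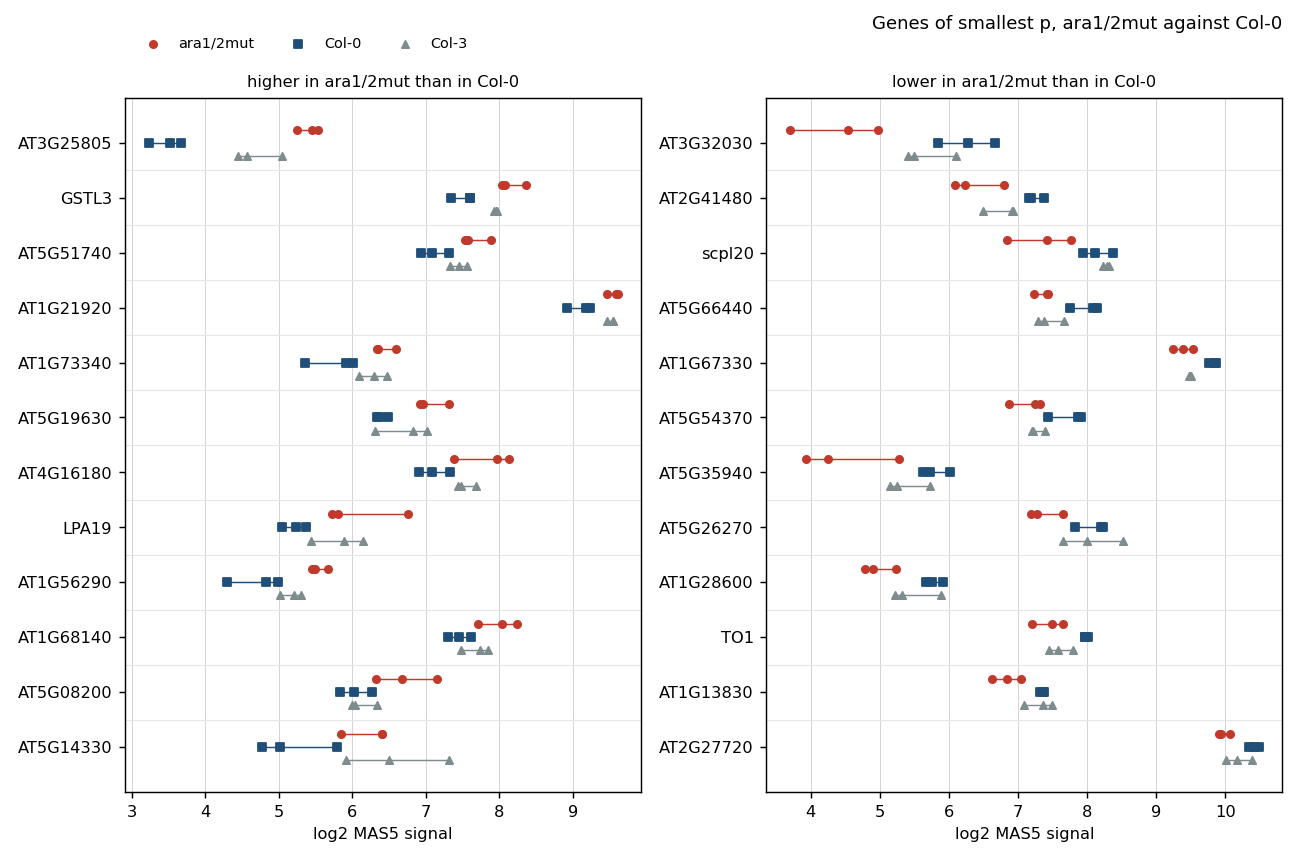
Log2 MAS5 signal (horizontal axes) of the 24 genes of smallest p, with ara1/2mut (circles), Col-0 (squares) and Col-3 (triangles), 3 arrays each, and a line over each group's range. By the rule that chose them no gene's ara1/2mut and Col-0 arrays overlap, while the Col-3 arrays lie near ara1/2mut for AT1G21920, AT1G67330 and AT5G66440 and near Col-0 for scpl20, AT5G26270 and AT1G13830.

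Of the unnamed probe sets, 258380_at read 52.3, 63.4 and 61.3 in ara1/2mut, against 30.3, 16.5 and 14.0 in Col-0 and 26.2, 26.8 and 28.7 in Col-3 (1.62, SE 0.37, against Col-0). Probe set 251407_at read 130.3, 141 and 234 in ara1/2mut, against 72.7, 58.5 and 62.9 in Col-0 and 78.6, 51.1 and 54.9 in Col-3. In both, all ara1/2mut arrays lay above all 6 wild-type arrays. The log2 differences of 251407_at were 1.34 (SE 0.32) against Col-0 and 1.43 (SE 0.32) against Col-3. In the lower direction 266366_at had -0.58 (SE 0.15) and 267126_s_at had -0.70 (SE 0.19) against Col-0, and 0.07 and -0.20 against Col-3.

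The design asks which differences of ara1/2mut do not rest on one wild type. The 3 ara1/2mut arrays lay outside all 6 wild-type arrays in 253 probe sets (1.85%), above them in 144 (1.06%) and below in 109 (0.799%). Among so many probe sets some would lie so by the order of the arrays alone, whatever the groups. The 253 are therefore not a count of differences shown against both wild types. Of these, 76 higher and 56 lower ones were named, and the 8 of smallest p in each direction are given here, their lack of overlap again being the rule. Against the mean of both wild types their adjusted limma p ran from 0.968 to 0.999.

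In the higher direction AT3G25805 and GSTL3, described above, were among the 8. GAMMA-VPE, a vacuolar processing enzyme that matures vacuolar proteins and takes part in programmed cell death, had the highest signals of them. It read 2552, 1334 and 1272 in ara1/2mut, against 1242, 1070.3 and 1017 in Col-0 and 1084, 918 and 1021 in Col-3. Replicate 1 stood far above the other ara1/2mut arrays, which lay just above the highest wild-type array. The log2 difference from Col-0 was 0.56 (SE 0.22), and 0.24 without ara1/2mut replicate 1. The extensin gene AT3G54580 read 485, 699.6 and 640.5 in ara1/2mut, against 436, 448 and 480.0 in Col-0 and 220.3, 289 and 451 in Col-3 (0.40, SE 0.28, against Col-0). AT3G57940 had low but even signals of 39.4, 38.4 and 40.8 in ara1/2mut, against 36.5, 20.3 and 16.5 in Col-0 (0.78, SE 0.39). AT3G50250, AT4G19150 and AT1G75560 had log2 differences from Col-0 of 0.95, 0.41 and 0.33. AT3G50250 had low signals of 43.7, 62.5 and 62.3 in ara1/2mut, against 41.8, 21.3 and 26.4 in Col-0. Its probe set carries the suffix x, for probes that match other transcripts in part.

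In the lower direction scpl20 had the smallest p, with a log2 difference of -0.87 (SE 0.17) against the mean of both wild types and an unadjusted limma p of 0.000128. AT5G47550, a phytocystatin (an inhibitor of cysteine proteases), read 182, 216 and 265 in ara1/2mut, against 266, 324 and 379 in Col-0 and 294, 379 and 368 in Col-3. The log2 differences were -0.55 (SE 0.18) against Col-0 and -0.66 (SE 0.18) against Col-3, and the highest ara1/2mut array lay next to the lowest Col-0 array. ARPN, a plantacyanin (a small secreted copper protein), read 48.8, 105 and 102 in ara1/2mut, against 136, 119 and 168 in Col-0 and 135, 156 and 165 in Col-3. Replicate 1 of ara1/2mut was the lowest by far, and the difference from Col-0 was -0.79 (SE 0.27), or -0.43 without that array. AT5G26270 read 146, 201 and 155 in ara1/2mut, against 295, 302 and 227 in Col-0 (-0.72, SE 0.21) and 202, 367 and 256 in Col-3 (-0.69, SE 0.21). AT1G13830 had log2 differences of -0.52 against Col-0 and -0.48 against Col-3, AT5G22555 had -0.59 and -0.90, and AT2G01580 had -0.48 and -0.94. Against Col-0, 8 of 8 genes of this direction had an unadjusted limma p under 0.05 (1.82% of all probe sets) and 4 of 8 of the higher direction (1.74%). Against Col-3 the counts were 8 and 6 (1.78% of all probe sets in each direction). The genes were taken by their p and lack of overlap on these same arrays, so the counts describe the choice.

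The genes of smallest p against Col-3, 8 in each direction, gave other values against Col-0. Of the 8 higher ones 5 are extensins, hydroxyproline-rich proteins that form a network in the cell wall and are abundant in root hairs. AT5G06630 read 605, 962 and 1002 in ara1/2mut, against 673, 649 and 868 in Col-0 and 234, 421 and 362 in Col-3. The ara1/2mut arrays overlapped the Col-0 arrays and lay above the Col-3 arrays. Its log2 difference was 0.21 (SE 0.29, 95% interval -0.42 to 0.83) against Col-0 and 1.34 (SE 0.29, 95% interval 0.72 to 1.97) against Col-3. HRGP1 read 1461, 1721 and 1787 in ara1/2mut, against 1572, 1471 and 1943 in Col-0 and 639, 1117 and 1083 in Col-3. Its differences were 0.00 (SE 0.23, 95% interval -0.48 to 0.48) against Col-0 and 0.85 (SE 0.23) against Col-3. AT3G28550 had 0.25 and 1.23, AT4G08410 had 0.01 and 1.02, and AT3G54580 had 0.40 and 0.97 against Col-0 and Col-3, in that order. Without ara1/2mut replicate 1 the differences from Col-0 were 0.44 for AT5G06630, 0.41 for AT3G28550 and 0.22 for AT4G08410.

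Over all 9 extensins the median log2 difference was 0.01 against Col-0, with a range of -0.57 to 0.40 and 7 of 9 above 0, and 0.97 against Col-3. Against Col-0, 0 of 9 had an unadjusted p under 0.05 (3.56% of all probe sets). AT3G54580 lay wholly above the Col-0 arrays (1 of 9, beside 4.55% of all probe sets) and AT1G23720 wholly below (1 of 9, beside 3.92%). The mean log2 signal of the 9 was 8.27, 8.48 and 8.39 in ara1/2mut, against 8.33, 8.40 and 8.31 in Col-0 and 7.07, 7.79 and 7.75 in Col-3. On this scale ara1/2mut and Col-0 averaged 8.38 ± 0.10 and 8.35 ± 0.05, and Col-3 averaged 7.54 ± 0.41 (SD, n = 3 each). The extensins were picked in earlier work because members led the ranking against Col-3, so their values there are a description. Several of their probe sets carry the suffix x, for probes that match other transcripts in part, so the members' signals are not separate measurements.

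Outside the extensins, the genes higher against Col-3 were AT2G39260, a UPF2 protein of nonsense-mediated mRNA decay, the RNA helicase gene PRH75 and AT2G31370, a bZIP transcription factor. AT2G39260 read 98.7, 109 and 64.1 in ara1/2mut, against 95.9, 72.2 and 89.1 in Col-0 and 33.8, 55.9 and 55.0 in Col-3, so that ara1/2mut and Col-0 overlapped. The log2 differences from Col-0 were 0.06 (SE 0.25) for AT2G39260, 0.15 (SE 0.16) for PRH75 and 0.21 (SE 0.18) for AT2G31370. Against Col-3 they were 0.91, 0.57 and 0.63. None of these 8 genes had an unadjusted limma p under 0.05 against Col-0 (1.74% of all probe sets in that direction), and the lowest was 0.175.

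Of the 8 genes lower against Col-3, 5 had an unadjusted limma p under 0.05 against Col-0 (1.82% of all probe sets). The same 5 had arrays wholly below Col-0 (3.92% of all probe sets). All 8 were taken for low values in the same ara1/2mut arrays, so these counts partly follow from the choice. The 5 were scpl20, AT2G01580, AT5G22555, AT5G47550 and ARPN, given above. The other 3 were AT2G35750, the asparaginase gene ASPGB1 and AT3G11250, a P0 protein of the ribosomal stalk. AT2G35750 read 50.4, 63.2 and 64.4 in ara1/2mut, against 53.6, 69.3 and 70.0 in Col-0 and 112, 88.8 and 117 in Col-3, with log2 differences of -0.11 (SE 0.20) and -0.83 (SE 0.20). Here Col-0 lay with ara1/2mut and Col-3 above both. ASPGB1, whose enzyme releases ammonium from asparagine, had -0.34 (SE 0.29, or -0.11 without ara1/2mut replicate 1) against Col-0 and -1.07 against Col-3, and AT3G11250 had -0.43 (SE 0.21) and -0.72.

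**Figure D4:**
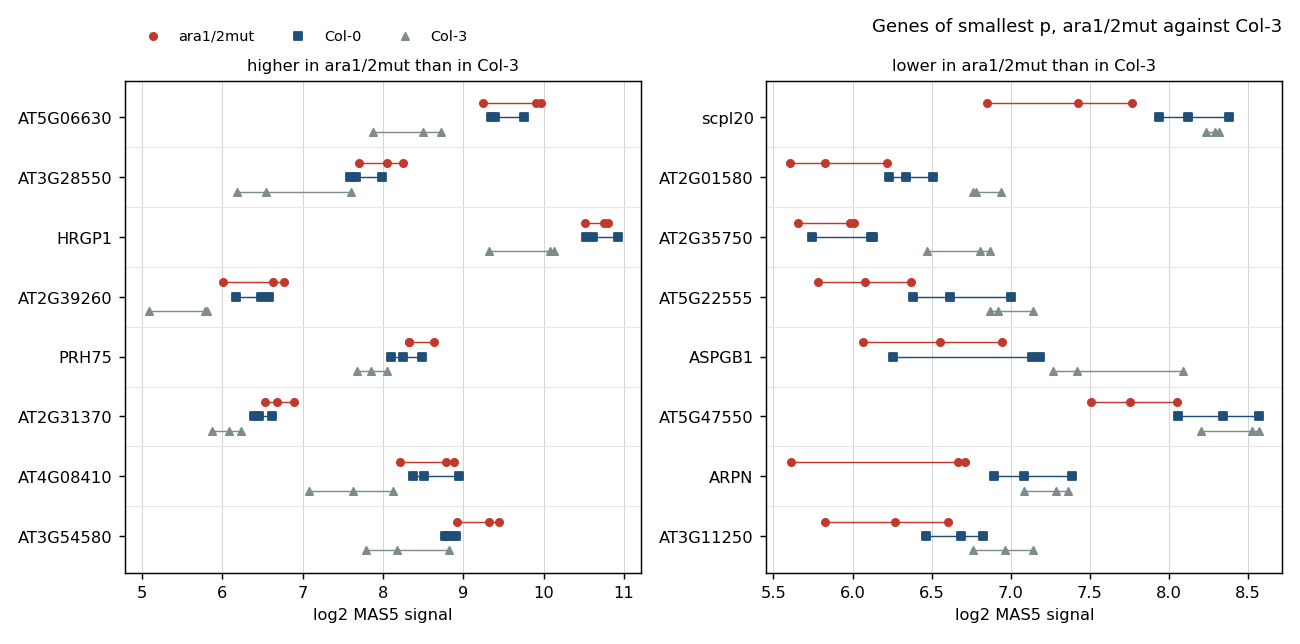
Log2 MAS5 signal (horizontal axes) of the 16 genes of smallest p in ara1/2mut against Col-3, with ara1/2mut (circles), Col-0 (squares) and Col-3 (triangles), 3 arrays each. The Col-0 arrays overlap ara1/2mut for 7 of the 8 genes on the left, AT3G54580 being the exception, and for 3 of the 8 on the right.

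Genes of lateral root initiation, the process the ARABIDILLO proteins promote, had few named probe sets: 4 of 13 listed, of which 3 were tested. LBD16, an auxin-induced transcription factor of lateral root founder cells, read 69.5, 55.7 and 78.1 in ara1/2mut, against 63.6, 63.6 and 74.8 in Col-0. Its log2 difference was 0.00 (SE 0.21, 95% interval -0.45 to 0.45). LBD29, which acts with LBD16, had -0.01 (SE 0.45) and PUCHI, a transcription factor of the early primordium, had 0.34 (SE 0.43), or 0.01 without ara1/2mut replicate 1. PUCHI and LBD29 had mean signals of 28.8 ± 12.6 and 27.4 ± 6.28 in ara1/2mut, against 23.1 ± 11.6 and 27.4 ± 5.30 in Col-0 (SD, n = 3 each), close to the filter signal. The groups of all 3 genes overlapped. CR4, a receptor kinase, lay below the filter and was not tested.

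Genes of root hair growth other than extensins (3 tested of 24 listed) had a median log2 difference of 0.08 from Col-0. EXPA7 had 0.08 (SE 0.17), EXPA18 had -0.13 (SE 0.17) and GH9C1 had 0.10 (SE 0.19), and in each the groups overlapped. Of the auxin-responsive families (5 tested of 12 listed, median 0.02), GH3.17 read 806, 1051 and 783 in ara1/2mut, against 783, 526 and 619 in Col-0. GH3.17 encodes an enzyme that joins the auxin indole-3-acetic acid to an amino acid and so takes it out of use. Its log2 difference was 0.46 (SE 0.16, unadjusted limma p 0.0125, adjusted p 1.00), and 1 ara1/2mut array lay just under the highest Col-0 array. GH3.3, of the same family, had -0.27 (SE 0.36). The gibberellin list (4 tested of 10 listed, median 0.04) held the receptors GID1A, GID1B and GID1C and the F-box protein SLY1, which ran from -0.07 for SLY1 to 0.29 for GID1C.

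Of the class III peroxidases (34 tested, 44 named, 62 listed), 31 had a lower mean log2 signal in ara1/2mut than in Col-0. Over all probe sets tested 50.6% had a higher mean in ara1/2mut. The median difference was -0.17 against Col-0 and 0.03 against Col-3, where 18 of 34 were above 0. Of the 34, 0 passed the test, 4 had an unadjusted p under 0.05 in the lower direction (11.8%, against 1.82% of all probe sets), and 1, AT2G41480, had arrays wholly below Col-0 (2.94%, against 3.92%). AT4G08780 read 37.5, 45.4 and 56.7 in ara1/2mut, against 53.5, 81.2 and 94.6 in Col-0 (-0.70, SE 0.24). AT2G39040 and AT5G66390 had -0.53 (SE 0.22) and -0.38 (SE 0.17). The mean log2 signal of the 34 was 7.84, 7.96 and 7.98 in ara1/2mut, against 7.91, 8.29 and 8.24 in Col-0 and 8.01, 7.83 and 7.88 in Col-3. Col-0 replicate 1 thus lay within the ara1/2mut range and only replicates 2 and 3 above it. The members share these 6 arrays and are not replicates of each other. Leaving out 1 array at a time the median ran from -0.29 to -0.12.

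Ribosomal stalk P proteins, the acidic proteins that bring elongation factors to the ribosome, were listed after the values of AT2G27720 and AT3G11250 had been seen. Of 13 genes 11 were tested, with a median of -0.24 against Col-0 and -0.22 against Col-3 and 9 of 11 below 0 against Col-0. AT2G27720, AT5G57290 and AT4G25890 had an unadjusted p under 0.05 (3 of 11, 27.3%, against 1.82% of all probe sets), and 0 passed the test. The median and the counts include the genes already seen, AT2G27720 among the 3, so they partly describe how the list was made. AT5G57290, a P3 protein, read 239.6, 314 and 321 in ara1/2mut, against 350.1, 413 and 386 in Col-0 (-0.40, SE 0.15, or -0.27 without ara1/2mut replicate 1). The list's mean log2 signal was 8.29, 8.52 and 8.86 in ara1/2mut, against 8.52, 8.89 and 8.89 in Col-0. Replicate 3 of ara1/2mut lay within the Col-0 range, and without ara1/2mut replicate 1 the median was -0.02.

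Expansins and xyloglucan enzymes, which loosen the wall during growth (17 tested of 27), had a median of -0.23 with 12 of 17 below 0. It was -0.05 without ara1/2mut replicate 1. None of the 17 had an unadjusted limma p under 0.05, and XTH18, a xyloglucan endotransglucosylase, came closest with -0.34 (SE 0.17, p 0.0666) and signals of 369.7, 496 and 413 in ara1/2mut, against 470.5, 534 and 612 in Col-0. Glutathione transferases (12 tested of 14) had a median of -0.15, with 9 of 12 below 0. GSTL3 and GSTU18 stood apart from the rest of that list, at 0.65 and 0.66. GSTU18 read 36.3, 43.3 and 36.8 in ara1/2mut, against 28.5, 23.3 and 22.3 in Col-0 and 24.3, 29.8 and 23.8 in Col-3, above all 6 wild-type arrays (SE 0.28). At the other end, GSTU25 had -0.71 (SE 0.39, or -0.37 without ara1/2mut replicate 1), with 276, 385 and 808 in ara1/2mut, against 646, 725 and 794 in Col-0. Its ara1/2mut arrays spread over more than the whole Col-0 range.

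Plastid-encoded genes, transcribed inside the organelle, spread widely (49 tested of 69). The median was 0.18, 34 of 49 were above 0, and members ran from -1.12 for psbK to 1.15 for psaJ. Yet 0 of 49 had ara1/2mut arrays wholly above Col-0 (4.55% of all probe sets). Wholly below lay 4, psbK among them (8.16%, beside 3.92% of all probe sets). The list's mean log2 signal was 6.80, 7.63 and 6.89 in ara1/2mut, against 7.38, 6.64 and 6.78 in Col-0, so that 1 array stood high in each group. The median was -0.05 without ara1/2mut replicate 2 and 0.39 without Col-0 replicate 1. psbK, a small photosystem II protein, read 236, 159 and 65.0 in ara1/2mut, against 341, 263 and 278 in Col-0 (-1.12, SE 0.57), and 42.9, 221 and 76.0 in Col-3. atpH, a subunit of the chloroplast ATP synthase, read 65.5, 104 and 39.1 in ara1/2mut, against 85.1, 26.1 and 12.5 in Col-0 (1.09, SE 0.55). Both SEs exceeded the median SE of 0.23 over all probe sets. The gene rps19, which encodes a ribosomal protein and had -0.51 (SE 0.24), was the only member of 49 with an unadjusted limma p under 0.05 (0.0479), a share of 2.04% beside 1.82% of all probe sets in that direction.

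**Figure D5:**
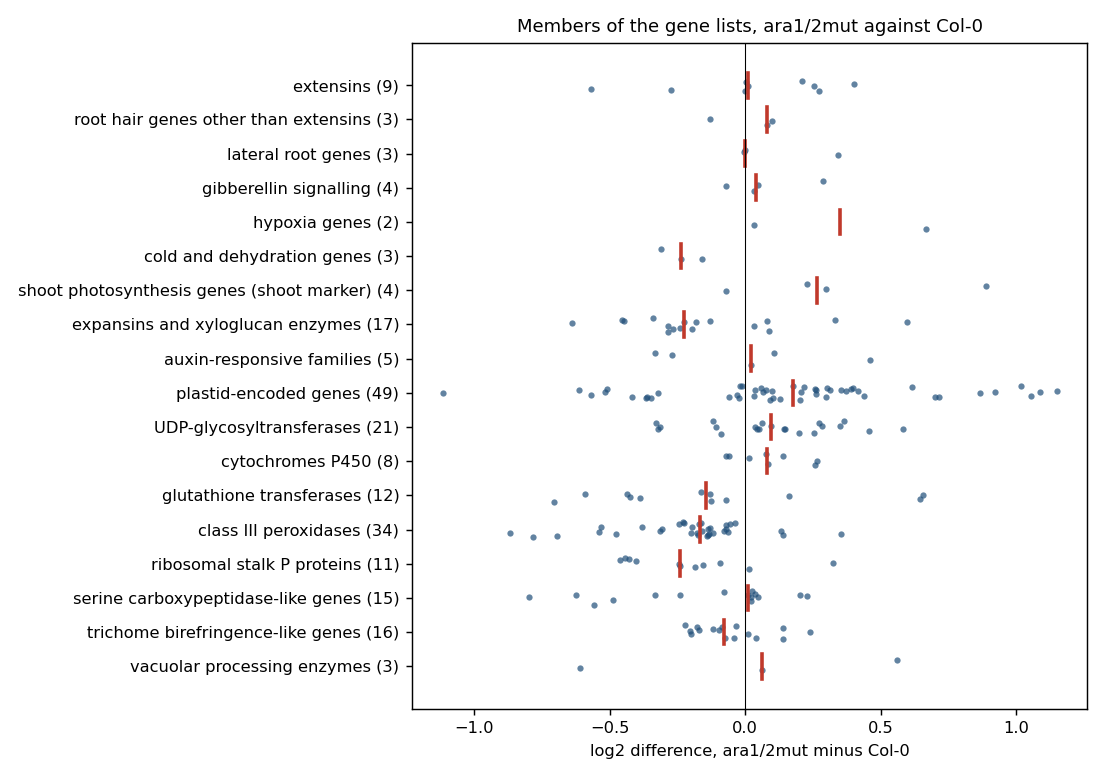
Log2 difference, ara1/2mut minus Col-0 (horizontal axis), of every tested member (points) of each gene list, with the list's median (bar) and the number of members tested in brackets. Medians lie between -0.24 and 0.35, members of most lists fall on both sides of 0, and 31 of the 34 class III peroxidases lie below it.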

How the data were processed

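Total RNA from roots was hybridised to Affymetrix ATH1 arrays, 1 per sample, in 4 groups of 3 taken from the sample titles. The deposited values are intensity signals on a linear scale, and per the submitters' processing notes they come from MAS5, whose version and scaling target the sources used here do not give. In the deposited table each array had a trimmed mean of 100.0 with 2% of values left out at each end, so a shift of all transcripts together could not be seen. Detection calls were not used here.

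Signals were taken as log2 with no further normalization. After 64 controls were left out, 13648 of 22746 probe sets passed the filter, which asked for a log2 signal averaging no less than its 40th percentile (4.49). A linear model with 1 coefficient per group was fitted to all 12 arrays with limma 3.58.1 under R 4.3.3. Variances were moderated along the trend with signal, and degrees of freedom were 8 residual and 7.49 prior. Two-sided tests were used, p-values were adjusted by Benjamini-Hochberg over all 13648 probe sets, and an adjusted p under 0.05 counted as called. The procedure was tested on simulated data.

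Probe sets were named from the platform's gene table, which lists 14016 of them (13513 with 1 gene, 503 with several). Of these, 13436 were matched to 13286 genes in RefSeq's table of assembly TAIR10.1, used for names only. A probe set with several genes or outside that table is unnamed here.

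Named are up to 12 genes per direction of smallest p against Col-0, 8 against Col-3 and 8 against the mean of both wild types, all without overlap of arrays, then up to 4 members per list, all extensins and all root hair and lateral root genes, and 2 unnamed probe sets per direction. The members and lists were chosen with earlier results of these data known. The stalk protein, serine carboxypeptidase-like and vacuolar processing enzyme lists were added after members had been seen, and the plastid and peroxidase lists were completed after the files had been read.

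Each array was left out in turn. The other alternatives concerned scaling (quantile normalization or median centring), the filter (none, or the 60th percentile), a pseudocount of 16, and the model. The model was refitted without the variance trend, with array weights, on the compared groups alone, and with replicate number as a block.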

Additional observations from a re-analysis of the deposited data

How the results depend on the processing

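Of the alternatives to the comparison of ara1/2mut with Col-0, the fit with no variance trend called 1 probe set, AT3G25805, and all others called 0. Leaving out 1 array gave 0 calls against Col-0 each time, 0 to 1 against Col-3 and 0 to 1 against the mean of both wild types. Against Col-3, array weights gave 4 calls, AT5G06630 among them, leaving out Col-3 replicate 3 gave 1, AT3G28550, and leaving out Col-3 replicate 2 gave 1 unnamed probe set, as it did (1) against the mean of both wild types. With the replicate number as a block there were 0 calls in each comparison, so the block changed no call. The smallest adjusted limma p-values were then 0.0526 against Col-0 (AT3G32030), 0.0661 against Col-3 and 0.0763 against their mean. At an unadjusted p under 0.05 the block gave 683 probe sets against Col-0, where the fit reported gave 486. Deviations from the group means of same-numbered arrays correlated at 0.24, -0.07 and 0.17 between ara1/2mut and Col-0 and at 0.18, 0.096 and 0.26 between ara1/2mut and Col-3. As not every pair was over 0.1, the fit reported did not pair the samples by number. Yet each ara1/2mut array correlated best, among the Col-3 arrays, with the one of its own number (highest between different numbers 0.030). The titles also number the arrays in sets that hold each group once per replicate number, without saying what a set shares. Whether the samples are paired is thus not settled, and the fit with the block stands beside the fit reported. At an unadjusted p under 0.05, the count against Col-0 was 862 with no filter and 931 with array weights, against 486 in the fit reported. For the 108 named genes and probe sets, 1594 alternative values were computed against Col-0, of which 58 had the other sign, none of them past the threshold. The median of the extensins ran from -0.046 to 0.16 when 1 array was left out (0.16 without Col-0 replicate 1, 0.12 without Col-0 replicate 3), and that of the vacuolar processing enzymes from -0.13 to 0.17 (-0.13 without Col-0 replicate 3). The cause of these differences was not tested. Signals near the filter signal of 22.4 limit the sizes of AT3G25805, AT3G32030, AT5G35940, PUCHI and LBD29. The same holds for AT3G50250, AT1G56290, AT3G57940, GSTU18, atpH and probe set 258380_at, among others. With 3 arrays per group, 95% limits reach about 2.13 SE on each side, where the median SE is 0.23. Adjustment over 13648 probe sets asks for more, and even AT3G32030, at -1.85 against Col-0, was not called. The 0 calls therefore do not show that differences of such sizes are absent.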

Other observations

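Enzymes that modify small molecules held 0 members that passed the test. UDP-glycosyltransferases, which attach sugars to hormones and phenolics (21 tested of 43), had a median log2 difference of 0.10, with 15 of 21 above 0. UGT71C1 read 332, 279 and 412 in ara1/2mut, against 265, 271 and 249 in Col-0 (0.36, SE 0.17, unadjusted limma p 0.0519), and its groups did not overlap. UGT76C2, a cytokinin glucosyltransferase, had -0.33 (SE 0.19). Cytochrome P450 genes that carry a CYP symbol in the gene table (8 tested of 23) had a median of 0.08 and ran from -0.07 to 0.27. AT1G73340, with no such symbol there, is not among them and had 0.66.

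The list medians were 0.01 for serine carboxypeptidase-like genes (15 tested of 29), where scpl20 at -0.80 was the lowest. They were -0.08 for the trichome birefringence-like genes of wall acetylation (16 of 22) and 0.06 for vacuolar processing enzymes (3 of 4). BETA-VPE had -0.61 (SE 0.41, or -0.29 without ara1/2mut replicate 1), where GAMMA-VPE had 0.56 (SE 0.22).

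The dehydrin genes LTI30 and COR47, whose proteins protect cells from cold and drought, had -0.31 (SE 0.13, unadjusted limma p 0.0348) and -0.16 (SE 0.19). LTI30 read 715, 605 and 646 in ara1/2mut, against 741, 849 and 847 in Col-0 and 670.1, 598 and 747 in Col-3, without overlap with Col-0 and with overlap with Col-3. Their list, with the zinc-finger gene STZ (-0.24), had a median of -0.24 (3 tested of 13). Of 25 genes of the response to low oxygen 2 were tested, AT1G33055 (0.67, SE 0.38) and PDC2, a pyruvate decarboxylase of fermentation (0.03, SE 0.15). AT1G33055 read 201, 84.1 and 76.6 in ara1/2mut, against 89.0, 68.8 and 52.7 in Col-0, with replicate 1 of ara1/2mut the highest, and its difference was 0.23 without that array. For COR47 it was then -0.33, and for UGT76C2 -0.19.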
